A study of Mus musculus with 7 samples.

Results

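The semaphorins, plexins and neuropilins of the mouse were examined for binding of estrogen receptor beta (ERβ) in the ovary. The 30 genes were taken by family membership, as 19 semaphorins (classes 3, 4, 5 and 6), 9 plexins and 2 neuropilins, of 21755 protein-coding genes on the autosomes and chromosome X. Semaphorin 7A was left out, and no signal value enters the rule. The locus of a gene was its body in the mm10 annotation plus 50 kb on each side, and the 30 loci covered 6.86 Mb.

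Semaphorins are secreted or membrane-bound guidance proteins that steer growing axons, migrating cells and sprouting vessels. Plexins are their receptors and act on small GTPases and the cytoskeleton. Neuropilins are co-receptors that bind secreted class 3 semaphorins and also members of the VEGF family. ERβ, encoded by Esr2, is the main estrogen receptor of granulosa cells, the cells that surround the oocyte in the follicle, and it binds DNA at estrogen response elements (EREs). Vessels and cell layers are rebuilt with each follicle that grows, ovulates or regresses.

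The measurement was chromatin immunoprecipitation followed by sequencing (ChIP-seq), in which sheared chromatin held by an antibody is sequenced and compared with sheared chromatin that saw no antibody (input). The 5 libraries were 3 ERβ ChIP replicates made with the antibody PPZ0506 and 2 inputs. All came from ovaries of C57BL/6J mice with intact ERβ, and the labels name no transgene or treatment. Mice were 4 to 16 weeks old, and a replicate pooled 14 ovaries from 7 mice. The 2 ChIP libraries of knockout ovaries were not analysed here, so signal that the antibody gives without ERβ was not measured. Whole ovaries were used. Fewer cells of a type and less bound ERβ per cell therefore cannot be told apart, and ChIP signal offers no marker genes with which to check the tissue. No RNA was measured, and nothing below concerns expression.

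The deposited tracks hold normalised signal, the mean coverage over a stretch of sequence at a common library total. The mean over the genome lay between 0.362 and 0.370 in the 5 libraries. The inputs were stored at unequal resolution, Input replicate 1 with a median segment of 269 bp and Input replicate 2 with 519 bp, against 481 to 486 bp in the ChIP libraries. Track names sorted ChIP replicate 1 with Input replicate 1, and ChIP replicates 2 and 3 with Input replicate 2. Depth in reads is unknown from these files, so the spread between replicates alone set the precision. A site was a 200-bp window in which ChIP signal was over 4 times the mean of both inputs, the input being set to at least its genome mean, in 2 or more ChIP libraries. This gave 4841 sites in the genome. When each input was called against the other, 64 and 192 windows passed, none of them in the 30 loci.

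ERβ sites stood in the loci of 16 of the 30 genes (53.3%), beside 27.5% of all protein-coding genes. The 25 distinct sites ranged from 3.76-fold to 41.5-fold over input on average, with a median of 7.80. The 3 strongest lay in the neighbourhood of Sema3b and Sema3f, downstream of Sema4g, and in an intron of Sema5a. The DNA under the 12 highest of the 15 distinct strongest sites of these genes is shown, so that the match to the ERE can be read beside the height of the signal. The best matches at the 3 not shown (Sema5b, Sema6d and Plxna2) missed 3 of the fixed bases. Each line gives the best ERE match with 8 bases on each side, 5′ to 3′ on the plus strand of mm10, and capitals mark the bases equal to the 10 fixed bases of the element, GGTCA and TGACC with any 3 bases between them. The lines run from the highest to the lowest mean fold.
Sema3b and Sema3f (chr9:107658242-107658270): gacccaggGtgCAataTGACCcgggtcgg
Sema4g (chr19:45016789-45016817): cctgagcaGGTCAcagaGACCcctcaggg
Sema5a (chr15:32537416-32537444): tgccctcatGgCAcccTGACCcaggaaag
Plxna1 (chr6:89291043-89291071): atcaagtgGGgaAatgTGtCCctcctgcc
Sema4d (chr13:51719441-51719469): cccttgagaaaCActgTGcCCttgagaaa
Nrp2 (chr1:62729608-62729636): gcagggcaGGgCAggggcACCagtggctt
Sema3a (chr5:13624871-13624899): caccagcaGGTCAgtcTGACactgagctg
Sema6b (chr17:56120473-56120501): ctccgccaGGTCcaagTGgCCcagggcgt
Sema3g (chr14:31207758-31207786): gattctccGGTCAgctTGACCtcaggcaa
Plxnc1 (chr10:94883279-94883307): ctctcccaGGTCAgccaGctCaggagatg
Sema4a (chr3:88415896-88415924): tacactgaGGTCAcaggGACactggaggc
Sema4b (chr7:80185197-80185225): gcctccagGGcCAtgaTGACCtttgacaa

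Only the Sema3g site among the 25 carried the complete element. The Sema4g, Sema3a and Sema4b sites each missed 1 of the 10 fixed bases, and the sites of Sema3b and Sema3f, Sema5a, Sema6b and Sema4a missed 2. The best matches at Plxna1, Nrp2 and Plxnc1 missed 3 bases, and that at Sema4d missed 4.

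The secreted class 3 semaphorins had sites at 4 of 7 genes. Sema3b and Sema3f lie near each other on chromosome 9, with Gnai2 and Slc38a3 among the genes between them, and their loci share 2 sites, which are counted once in the total of 25. The strongest of all sites in the 30 loci was at chr9:107658151-107658350, within the neighbouring gene Slc38a3 and 1.28 kb from its transcription start site (TSS). It lay 49.0 kb upstream of Sema3b and 23.2 kb downstream of Sema3f, whose product signals through neuropilin 2. Signal there was 25.1, 28.4 and 28.2 in ChIP replicates 1, 2 and 3, and 0.575 and 0.739 in Input replicates 1 and 2. The ChIP libraries were close to each other and far above both inputs. The mean fold was 41.5 ± 2.84 (SD, n = 3), which ranked 12 among the 4841 sites. Here and below, the SD of a fold covers the ChIP libraries only, since all 3 were divided by the same mean of the inputs. The other shared site was at chr9:107635591-107635790, 0.323 kb before the TSS of Gnai2, and reached 9.37 ± 1.98-fold (n = 3). Both shared sites thus had the TSS of another gene nearest to them. Sema3f had a further site inside Rbm5 (chr9:107748551-107748750, 5.75 ± 2.81-fold, n = 3), which was over 4-fold in ChIP replicates 1 and 2 only.

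Sema3a encodes a secreted repellent of axons that acts through neuropilin 1 and class A plexins. Its site lay 22.3 kb downstream of the gene (chr5:13624811-13625010), with signal of 3.41, 5.12 and 5.86 in the ChIP libraries and 0.640 and 0.293 in the inputs. Input replicate 1 stood above Input replicate 2, and the mean fold of 10.3 ± 2.69 (n = 3) became 7.49 against Input replicate 1 alone and 13.1 against Input replicate 2 alone. Sema3g, another secreted ligand of neuropilins, had its site 10.1 kb upstream, inside Nisch and 0.552 kb before the TSS of Tnnc1 (chr14:31207661-31207860). Signal was 3.68, 5.80 and 4.46 in the ChIP libraries and 0.514 and 0.518 in the inputs. All ChIP values exceeded both inputs, and the mean fold was 9.0 ± 2.07 (n = 3). Sema3c, Sema3d and Sema3e had no site.

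Among the membrane-bound class 4 semaphorins, 4 of 6 genes had a site. The Sema4g site (chr19:45016681-45016880) lay 13.4 kb downstream of the gene, within Lzts2 and 0.283 kb from its TSS. Signal was 13.3, 18.05 and 20.5 in the ChIP libraries and 0.615 and 0.640 in the inputs. The ChIP libraries spread more than at the Sema3b and Sema3f site, with a mean fold of 27.5 ± 5.83 (n = 3). Sema4d, a ligand of plexin B1 also known on immune cells as CD100, had a site in its intron 6 of 15 (chr13:51719351-51719550). Signal was 4.52, 4.37 and 4.69 in the ChIP libraries and 0.377 and 0.380 in the inputs. The ChIP replicates were close together and well above both inputs, and the mean fold was 11.97 ± 0.416 (n = 3).

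Sema4b had 2 sites upstream of the gene. The nearer lay 1.61 kb before its TSS (chr7:80185131-80185330), with signal of 4.11, 4.95 and 5.30 in the ChIP libraries and 0.806 and 0.602 in the inputs, 6.80 ± 0.874-fold (n = 3). The farther, 29.7 kb upstream, reached 4.53 ± 2.48-fold and was at only 1.77-fold in ChIP replicate 1. Sema4a, which acts on T cells and endothelium, had a site 20.1 kb downstream inside Slc25a44 (chr3:88415771-88415970). Signal was 3.15, 6.12 and 10.04 in the ChIP libraries and 1.15 and 0.600 in the inputs. ChIP replicate 1 was at 3.61-fold and replicate 3 at 11.5-fold, so the mean of 7.37 ± 3.96 (n = 3) rests on unequal replicates. Sema4c and Sema4f had no site.

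Both class 5 semaphorins, membrane proteins with thrombospondin repeats, had sites in introns. Sema5a had 4 of them, the most of any of the 30 genes, in a body of 451.5 kb. The strongest was in intron 5 of 22 (chr15:32537321-32537520), with signal of 15.2, 19.2 and 18.9 in the ChIP libraries and 0.694 and 0.745 in the inputs. All ChIP values were far above both inputs, and the mean fold was 24.7 ± 3.07 (n = 3). The others reached 10.03 ± 1.36 in intron 3, 5.20 ± 1.56 in intron 2 and 5.004 ± 0.203 in intron 5 (n = 3 each). In Sema5b, a site in intron 3 of 20 (chr16:35630921-35631120) had signal of 2.77, 5.07 and 5.80 in the ChIP libraries and 0.918 and 0.440 in the inputs. Its mean fold was 6.70 ± 2.33 (n = 3), with ChIP replicate 1 at 4.08, just past the limit. It was 4.95 against Input replicate 1 alone and 10.3 against Input replicate 2 alone.

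Of the class 6 semaphorins, which bind class A plexins, Sema6b and Sema6d had sites and Sema6a and Sema6c had none. The Sema6b site (chr17:56120361-56120560) lay 2.62 kb downstream of the gene, inside Lrg1. Signal was 6.92, 7.76 and 8.58 in the ChIP libraries and 0.717 and 0.804 in the inputs, and the groups were well apart at 10.2 ± 1.09-fold (n = 3). Sema6d, the longest of the genes at 577.8 kb, had 2 sites in intron 5 of 20, at 5.20 ± 1.61-fold and 4.87 ± 1.91-fold (n = 3 each). In both, ChIP replicate 2 was the highest library. At the stronger site, signal was 2.59, 4.29 and 2.60 in the ChIP libraries and 0.774 and 0.441 in the inputs. Its mean fold was 4.08 against Input replicate 1 alone and 7.16 against Input replicate 2 alone.

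Sites were found at 3 of the 9 plexins. Plxna1, a receptor of class 3 semaphorins with neuropilins and of class 6 semaphorins without them, had 3. The strongest lay 25.3 kb downstream (chr6:89290901-89291100), with signal of 7.76, 6.71 and 4.05 in the ChIP libraries and 0.420 and 0.610 in the inputs. Here ChIP replicate 1 was the highest library and replicate 3 the lowest, at 11.98 ± 3.72-fold (n = 3). Its other sites were in intron 3 of 31 (5.32 ± 2.24-fold) and in intron 1 of 31 (4.46 ± 1.03-fold), the latter 0.723 kb before an annotated start of Plxna1 itself. That was the only site within 1 kb of a TSS of any of the 30 genes.

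Plxna2, a close relative, had the weakest site, 14.1 kb upstream (chr1:194604031-194604230). Signal was 1.02, 1.73 and 1.54 in the ChIP libraries and 0.410 and 0.350 in the inputs, and only ChIP replicates 2 and 3 passed, at 4.55 and 4.06-fold. The mean fold of 3.76 became 3.49 against Input replicate 1 alone and 3.90 against Input replicate 2 alone, so this call is close to the limit. Plxnc1, the receptor of semaphorin 7A, had a site in intron 4 of 30 (chr10:94883211-94883410). Signal was 4.90, 3.06 and 4.82 in the ChIP libraries and 0.439 and 0.510 in the inputs, 8.97 ± 2.20-fold (n = 3). The 3 class B plexins, Plxna3, Plxna4 and Plxnd1 had no site.

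Of the neuropilins, Nrp2, the co-receptor of Sema3f and of VEGF-C, had 2 sites 4.25 kb apart in intron 2 of 15. At chr1:62729521-62729720, signal was 9.09, 10.4 and 8.49 in the ChIP libraries and 0.900 and 0.738 in the inputs, 11.4 ± 1.22-fold (n = 3). At chr1:62725271-62725470, it was 4.90, 5.10 and 5.28 in the ChIP libraries and 0.845 and 0.460 in the inputs, 7.80 ± 0.290-fold (n = 3). The ChIP replicates were nearly level at both, but the inputs differed at the weaker site. Against the input of the same track-name group, its folds were 5.80, 11.1 and 11.5 in ChIP replicates 1, 2 and 3. Nrp1, the co-receptor of Sema3a and VEGF-A, had no site, and its strongest window reached 1.09, 3.47 and 2.61-fold.

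The strongest windows of the 14 genes without a site averaged from 1.71-fold at Plxna3 to 2.76-fold at Plxna4, and none averaged over 3-fold. No window there was over 4-fold in 2 ChIP libraries, so binding there was not detectable at this limit, which does not show that it was absent. The values next to the limit were close to it on both sides. Inside, the Plxna2 site passed with 4.06-fold in its lower passing library. Outside, a window of the Sema4d locus reached 3.00, 3.96 and 4.54-fold, so that only 1 library passed, and windows at Sema4b and Nrp2 missed by little more.

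**Figure D1:**
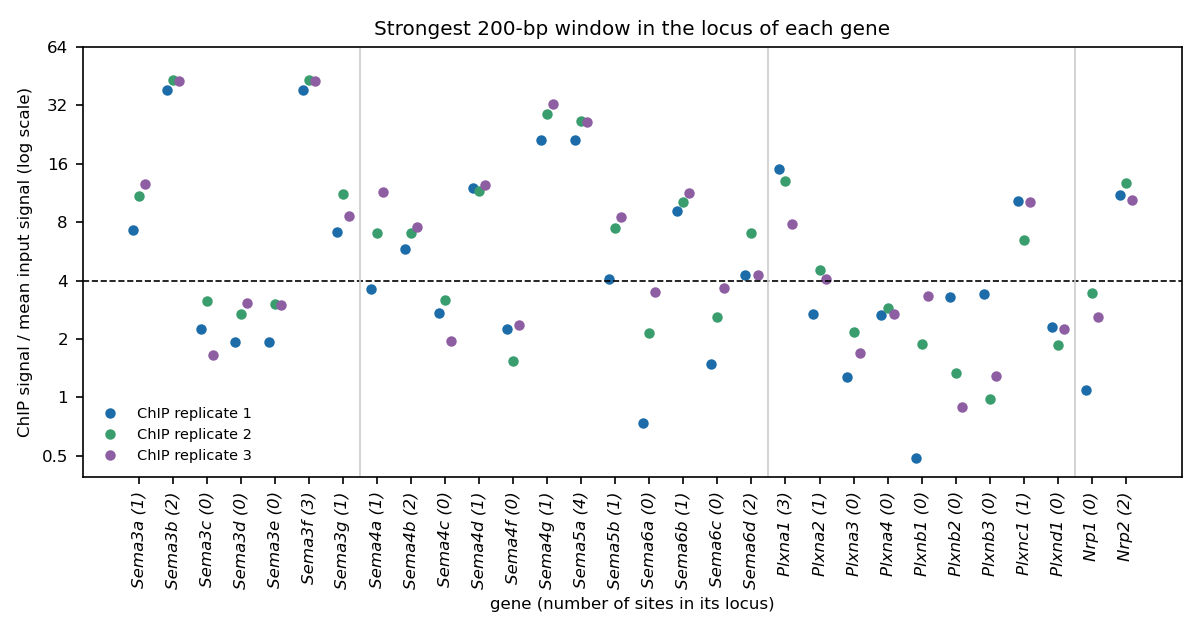
Fold of ChIP signal over mean input signal (log scale) in the strongest 200-bp window of each of the 30 loci, with a point for each ChIP replicate, the number of sites in brackets and a dashed line at 4-fold. Grey lines part class 3 semaphorins, class 4 to 6 semaphorins, plexins and neuropilins. Sema3b and Sema3f share the highest window, at 41.5-fold on average, and the 14 loci without a site have means of at most 2.76-fold.

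Over all 25 sites, mean signal was 5.50, 7.11 and 6.98 in ChIP replicates 1, 2 and 3, and 0.645 and 0.570 in the inputs. ChIP replicate 1 was the lowest ChIP library at 18 of the 25 sites, as it was at 62.1% of the other sites of the genome. Fold over 4 in all 3 ChIP libraries was reached at 17 of the 25 sites (68%), against 65.9% of the other sites. The 25 sites were further measured in whichever ChIP library took no part in calling them. The median fold was 7.19 in ChIP replicate 1 (23 sites called in the other two libraries), 10.97 in replicate 2 (17 sites) and 9.83 in replicate 3 (19 sites). Their mean was 9.33 ± 1.94 (SD, n = 3), against 7.05 ± 1.18 for sites elsewhere in the genome read the same way, and the inputs were shared by call and reading. In ChIP replicate 1, 16 of its 23 sites were over 4-fold when left out (69.6%, against 74.5% of sites elsewhere). It was 17 of 17 in replicate 2 (100%, against 93.4%) and 17 of 19 in replicate 3 (89.5%, against 87.8%).

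**Figure D2:**
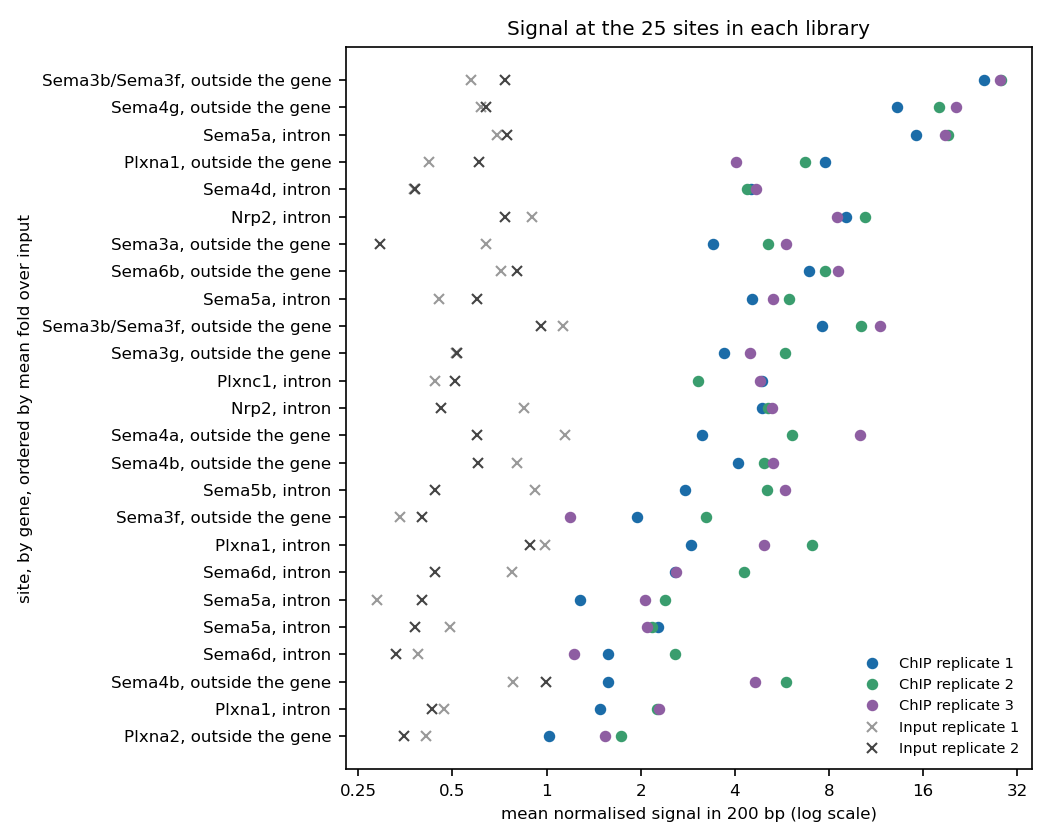
Mean normalised signal in 200 bp (log scale) at the 25 sites in the 3 ChIP (circles) and 2 Input (crosses) libraries, ordered by mean fold, with the gene and the location of each site. All ChIP values lie above both inputs, which the rule itself largely fixes, and inputs stay between 0.287 and 1.15.

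Signal around the sites was narrow. The stretches in which windows passed the limit were 230 to 790 bp long, with a median of 440 bp. Averaged over the 25 sites, ChIP signal peaked at 6.28, 8.08 and 8.06 in replicates 1, 2 and 3 in the 50 bp after the centre. The inputs stood at 0.625 and 0.567 there.

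**Figure D3:**
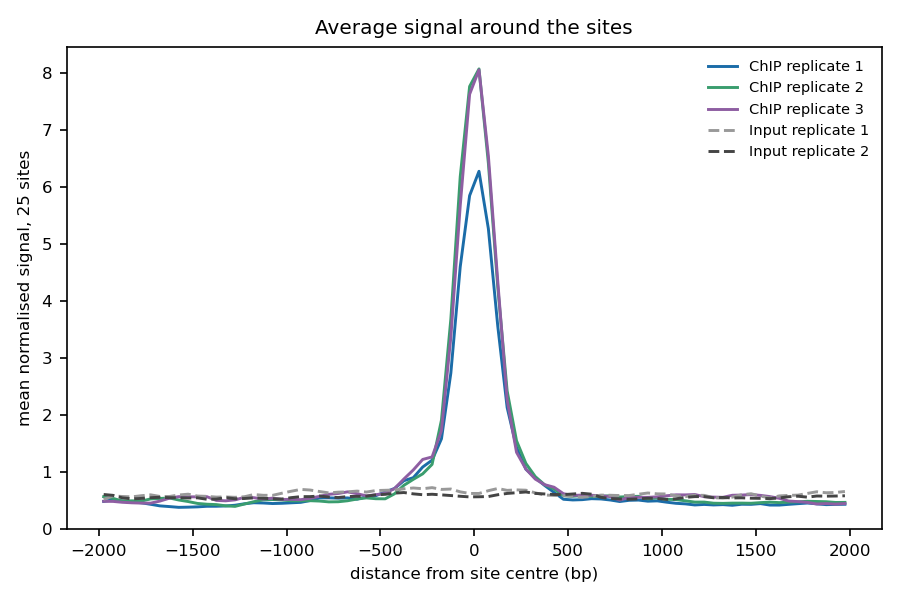
Mean normalised signal of the 25 sites in 50-bp steps within 2 kb of the site centre, for 3 ChIP (solid) and 2 Input (dashed) libraries. ChIP signal peaks at the centre at 6.28 to 8.08 and falls to or below the level of the inputs towards the edges, while the inputs stay between 0.520 and 0.728.

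In location, 13 of the 25 sites lay in introns of the 30 genes, none in an exon, and 12 outside the gene bodies, of which 6 were inside another protein-coding gene. The nearest protein-coding TSS belonged to a semaphorin, plexin or neuropilin gene for 17 sites and to another gene for 8. The sites of Sema3a, Sema3b, Sema3f, Sema3g, Sema4a, Sema4g and Sema6b belong to the latter, which includes the 2 strongest sites, so those loci rest on the 50-kb flank. With the gene body alone, 7 of the 30 genes had a site, against 8.83% of protein-coding genes. That contrast was not split by gene length. The bodies of the 7 ranged from 46.3 kb (Plxna1) to 577.8 kb (Sema6d), beside a median of 17.4 kb over protein-coding genes. No site was over 50% repeat sequence, and GC content ranged from 39% to 70%.

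Long loci hold more sites, and the 30 genes were longer than most, with a median body of 43.3 kb against 17.4 kb. The share of protein-coding genes with a site was 22.1% of those under 20 kb and 45.3% of those over 200 kb. Among the 30 genes it was 4 of 8 under 20 kb, 4 of 8 from 20 to 50 kb, 5 of 8 from 100 to 200 kb and 3 of 6 over 200 kb. At the share of each length class among all protein-coding genes, 10.1 of the 30 genes would have had a site, beside the 16 observed. Sites in all 3 ChIP libraries were present at 14 of the 30 genes (46.7%, against 19.6% of protein-coding genes), and 2 or more sites at 7 (23.3%, against 8.49%). Neither of these contrasts was split by gene length. With shared sites counted in each locus, there were 27 sites, beside 16.9 at the mean of each length class. The density was 3.64 sites per Mb of the 30 loci, against 2.42 over all protein-coding loci and 1.84 over the genome. These are descriptions, without a test, and loci that overlap share their sites.

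**Figure D4:**
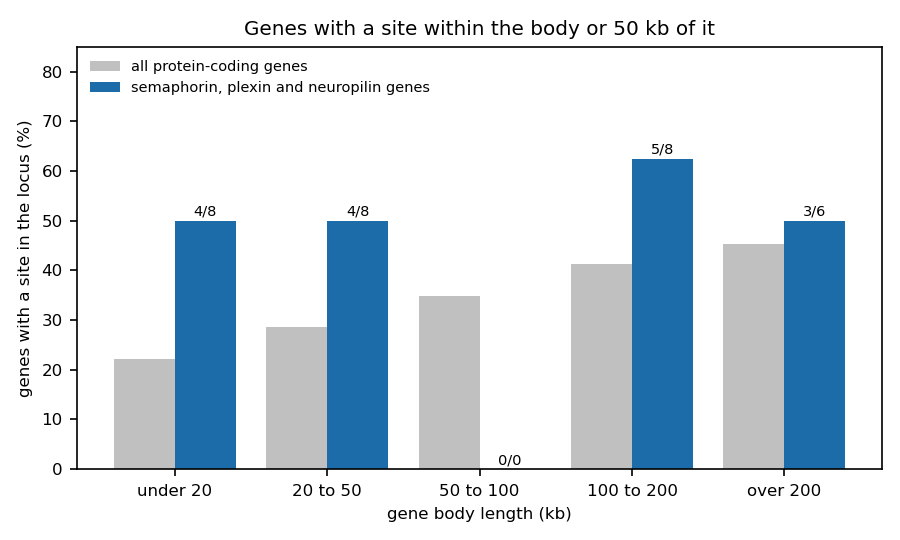
Share of genes with a site in the body or within 50 kb of it (%), by gene body length, for all 21755 protein-coding genes (grey) and for the 30 semaphorin, plexin and neuropilin genes (blue, with the number having a site over the number in the class). The blue bars stand above the grey ones in the 4 classes that hold any of the 30 genes, by least in the class over 200 kb (3 of 6 against 45.3%).

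An ERE with at most 2 mismatches was present in 13 of the 25 sites, 52% (95% Wilson interval 33.5% to 69.97%, which covers counting error only). The share was 68.2% among the other 4816 sites and 7.37% among 34043 windows of 200 bp in the same loci over 1 kb from any site. The interval of the 25 sites covers the share of the other sites. The match lay within 25 bp of the site centre in 7 sites (28%), against 42.0% of other sites and 2.07% of windows away from sites. Sites with such an ERE had a median of 9.37-fold and those without 6.01-fold, and the 3 sites over 16-fold all had it.

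Other motifs were searched on both strands without mismatch. The NR5A motif, TCAAGGTCA or CCAAGGTCA, bound by SF-1 and LRH-1, was in 3 of the 25 sites (12%, against 7.12% of other sites and 0.825% of windows away from sites), both intron sites of Plxna1 and the Sema5b site. All 3 lacked an ERE within 2 mismatches. The NR5A motif ends in AGGTCA, which is also an arm of the extended ERE, so these searches overlap. AGGTCA alone was in 64% of the 25 sites, 58.6% of other sites and 11.8% of windows away from sites. GATA motifs (AGATAA or TGATAA) were in 40%, 29.7% and 21.5%, FOXO motifs (TGTTTAC) in 8%, 4.71% and 2.88%, and AP-1 motifs (TGACTCA, which is TGAGTCA on the other strand) in 4%, 6.67% and 3.46%. GATA motifs were in 6 of the 13 sites with an ERE and in 4 of the 12 without. A match is a stretch of letters, and binding of these factors was not measured.

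Signal was next compared between ChIP and input across the whole genome in 1-kb windows, with limma on log2(signal + 0.5), a scale that understates changes where signal is low. Of 6786 windows in the 30 loci, 13 were higher in ChIP (0.192%), against 0.0957% of all 2430667 windows tested, at an adjusted p under 0.05 (Benjamini-Hochberg over all windows). All 13 overlapped a site region, and they held 12 of the 25 sites. The fit used the same ChIP and input libraries that called the sites. Calls and p-values at site windows are therefore largely fixed by the rule and are no separate evidence of binding. The windows of the other 13 sites were not called, with limma adjusted p from 0.0651 (Plxnc1) to 0.963 (Sema5b). The Sema5b site crosses a window edge, and only the window that holds its centre (chr16:35631001-35632000) was read for it. A 1-kb window averages over sequence wider than the site, and its values are lower than those in 200 bp.

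The window of the Sema3b and Sema3f site held 7.87, 8.87 and 8.87 in the ChIP libraries and 0.438 and 0.850 in the inputs. It was higher by 3.00 on the log2 scale (SE 0.26, limma adjusted p = 8.75e-09). The strongest Sema5a window held 5.37, 6.37 and 6.07 against 0.661 and 0.655, a log2 difference of 2.47 (SE 0.24, limma adjusted p = 3.74e-08). ChIP and input libraries did not overlap in either. The Nrp2 window (chr1:62729001-62730000) differed by 1.83 on the log2 scale (SE 0.22, limma adjusted p = 2.30e-06) and the Sema6b window by 1.35 (SE 0.21, limma adjusted p = 0.000420). These 4 stayed under 0.05 in each of 11 alternative fits. Those fits reused libraries that called the sites, so this describes the processing and is no separate evidence of binding. The Sema4g window differed by 2.41 (SE 0.26, limma adjusted p = 2.73e-07) and was not called when windows of low signal were kept. Calls were also made at Sema3a, Plxna1 (the downstream site), Sema4d, Sema4b (the nearer site), the Gnai2 side of the Sema3b and Sema3f pair, the Sema5a site in intron 3 and the weaker Nrp2 site, with log2 differences from 0.94 to 1.19. Leaving out Input replicate 1 or Input replicate 2 reduced the 13 windows to 7 in each case.

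A single window of the 30 loci was lower in ChIP, against 0.00267% of all windows tested. It lay in the flank of Sema4a, 4.81 kb from the TSS of Lmna (chr3:88488001-88489000), with 0.189, 0.385 and 0.469 in the ChIP libraries and 0.991 and 0.865 in the inputs. All ChIP values were below both inputs, and the log2 difference was -0.77 (SE 0.16, limma adjusted p = 0.0236). It was under 0.05 in 6 of 11 alternative fits and in none that left out ChIP replicate 1, ChIP replicate 2 or either input.

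No promoter of the 30 genes, taken from 1 kb before to 100 bp after the most upstream TSS, differed between ChIP and input in limma across 21064 promoters. Of all promoters 0.076% were called higher and 0.0237% lower. At an unadjusted p under 0.05, none of the 30 was higher (against 1.37% of all promoters) and 6 were lower (20%, against 11% of all), those of Sema3f, Sema4d, Sema5b, Plxnd1, Nrp1 and Plxnb1. The median log2 difference was -0.14 over the 30 promoters and -0.13 over all. Averaged over the 30 promoters, signal was 0.464, 0.506 and 0.675 in the ChIP libraries and 0.700 and 0.633 in the inputs. ChIP replicate 3 overlapped the inputs, and the difference of -0.119 gave p = 0.4 in a two-sided exact permutation test, in which 3 against 2 libraries cannot go below 0.2. All 3 ChIP libraries were below both inputs at 11 of the 30 promoters (36.7%, against 25.8% of all), and above both at that of Sema3a alone (3.33%, against 4.91%).

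The Sema3a promoter held 0.386, 0.435 and 0.433 in the ChIP libraries and 0.292 and 0.305 in the inputs, a log2 difference of 0.20 with a limma adjusted p of 0.525. The Sema4d promoter held 0.171, 0.249 and 0.308 in the ChIP libraries and 0.521 and 0.403 in the inputs, a log2 difference of -0.37 with a limma adjusted p of 0.245. The groups did not overlap in either gene, and neither difference passed. Without ChIP replicate 3, 7 of the 30 promoters were called lower, against 13.6% of all promoters, those of Sema3f, Sema4d, Sema5b, Plxna1, Plxnb1, Plxnd1 and Nrp1. In the 30 loci over 1 kb from any site, signal averaged 0.390, 0.412 and 0.452 in the ChIP libraries and 0.483 and 0.471 in the inputs. All ChIP libraries were below both inputs there (difference -0.0593, two-sided exact permutation p = 0.2, the smallest possible).

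**Figure D5:**
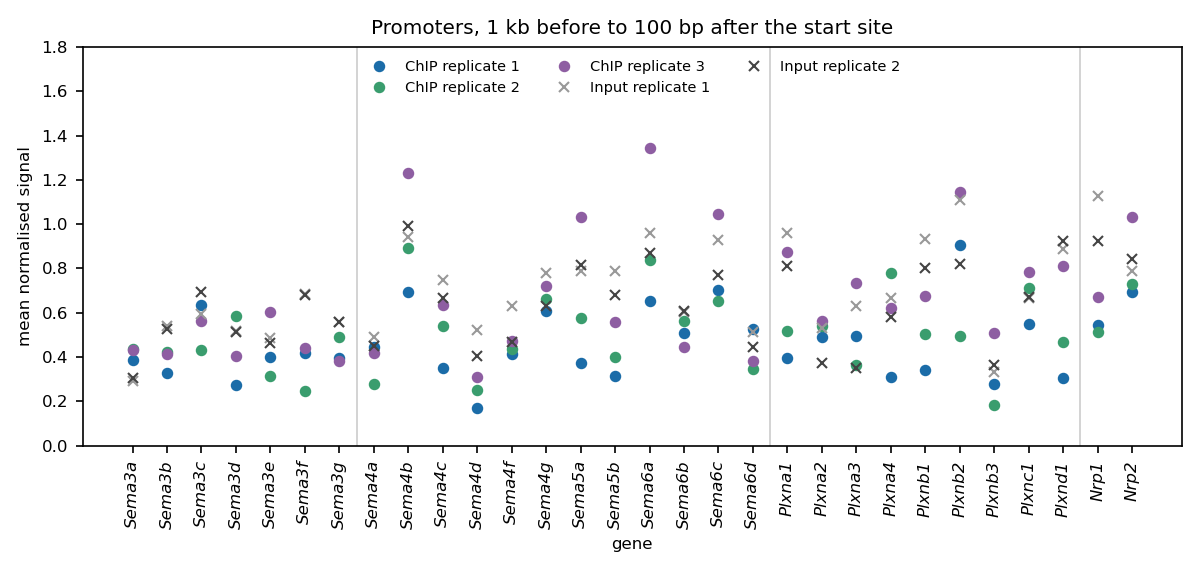
Mean normalised signal over the promoter (1 kb before to 100 bp after the most upstream start site) of the 30 genes in 3 ChIP (circles) and 2 Input (crosses) libraries. ChIP lies above both inputs in all 3 libraries at the Sema3a promoter alone, and at 11 of 30 all ChIP values lie below both inputs.

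Proteins that act with or below these ligands and receptors were taken as a second list of 30 genes, among them the MICAL oxidases, the collapsin response mediators (Crmp1 and the Dpysl genes), kinases and exchange factors. Of these, 11 had a site in the locus (36.7%, against 27.5% of protein-coding genes), and their median body was 47.9 kb. At the shares of the length classes 9.68 of them would have had a site. In limma, 7 of 5191 windows of their loci were higher in ChIP (0.135%, against 0.0957% of all windows tested). Among the same windows 1 was lower (against 0.00267% of all). The strongest site lay 18.7 kb downstream of Farp1, which encodes an exchange factor that acts with class A plexins, inside Stk24 (26.7 ± 3.20-fold, n = 3). A site 38.6 kb downstream of Mical3, inside Bid, reached 20.3 ± 5.62-fold (n = 3). Gsk3b, the kinase that phosphorylates collapsin response mediators, had a site at 15.1 ± 0.866-fold inside Nr1i2 and another 15.4 kb upstream at 8.10 ± 2.22-fold (n = 3 each). Rac1 had a site inside Daglb at 12.6 ± 1.97-fold (n = 3), and Mical2 had its own in intron 2 of 19 at 8.22 ± 0.962-fold (n = 3). Apart from those in Mical2 and upstream of Gsk3b, the nearest protein-coding TSS to these sites was that of another gene.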

How the data were processed

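Groups came from the sample titles. Per the methods and processing notes, the authors aligned reads with STAR to mm10 and worked with HOMER, and the deposited tracks hold normalised signal (coverage), 1 file per library. Their test on tag counts cannot be made from tracks, so limma was used. ChIP over input was computed in 200-bp windows at steps of 10 bp. Windows over 4-fold in 2 ChIP libraries were joined within 200 bp, and the window of highest mean fold was the site. Genes came from GENCODE M21. Windows of 1 kb and promoters with mean signal of at least 0.1 entered limma 3.58.1 (R 4.3.3, lmFit, eBayes with trend, Benjamini-Hochberg). Site calls used Python 3.11.15 and numpy 2.4.6. Caller and fit were tested on simulated data. Folds at sites are descriptions, since they made the calls, and limma at the windows of sites used the same libraries. Named are the strongest site of every gene that has any, and pathway genes with a site in all 3 ChIP libraries of at least 8-fold. The genes, lists and tests were chosen with earlier results of these data known. Genes of matched length were not drawn at random. Shares by length class over all genes are given instead. Alternatives changed the fold, floor, window, flank, filter, pseudocount and libraries, and those with the track-name group were chosen after seeing the data.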

Additional observations from a re-analysis of the deposited data

How the results depend on the processing

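The number of genes with a site stayed between 11 and 22 of 30 in every alternative but the gene body alone. The 22 came with a flank of 100 kb, where 40.4% of protein-coding genes had a site. At a minimum of 3-fold, 16 of the 30 genes had a site, against 37.5% of protein-coding genes. At a minimum of 8-fold there were 12 sites, 1.75 per Mb, with 11.5% of protein-coding genes. With the gene body alone there were 13 sites in 7 genes, with 8.83% of protein-coding genes, a share not split by gene length. By nearest TSS 14.9% of protein-coding genes had a site. Leaving out a library gave 14 to 16 genes and 17 to 30 sites, against 21.1% to 30.4% of protein-coding genes. Setting each ChIP library against the input with the same kind of track name gave 16 genes and 28 sites, against 29.4% of protein-coding genes. The share of sites with an ERE was 20% with at most 1 mismatch and 4% with none. With at most 2 mismatches it also moved with the site rule, from 43.5% with adjoining 200-bp windows to 66.7% at a minimum of 8-fold. The share among other sites is given for the main rule only. Windows higher in ChIP numbered 7 without a filter on low signal and 7 to 16 with a library left out. Windows lower numbered 0 without the filter and 0 to 12 with a library left out, the 12 without ChIP replicate 3 (0.0281% of all windows). The median of the strongest sites was 10.2-fold and 9.41 to 10.6-fold with a library left out. Replicate numbers are shared by ChIP and input but nothing says that they pair, and deviations of same-numbered libraries correlated at 0.0362 and -0.0111. A replicate block, which ChIP replicate 3 cannot enter, gave 32 windows lower (0.132% of all windows tested), 16 higher (0.141%) and 5 promoters lower (5.15% of all promoters), against 7 promoters lower (13.6%) without ChIP replicate 3. The cause of these changes was not tested. Among the alternative values for counts, shares and summaries, 20 were marked as moved and 130 as the same. Values marked as the same could still change in size. Sites went from 25 to 35 at a minimum of 3-fold, and genes from 16 to 22 with a flank of 100 kb. Depth unknown from the tracks and 2 inputs of unequal segment length limit all values.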
